A study of Homo sapiens with 4 samples.

Results

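Oxidative phosphorylation in U937 cells was described through 100 genes for the subunits of respiratory complexes I to V, 87 of them nuclear and 13 mitochondrial. They were chosen by symbol alone from the 60662 entries of the deposited count table, with pseudogenes left out, and no expression value entered the choice. The pattern of symbols matched 195 entries, of which 95 were pseudogenes. MT-ATP6 and MT-ATP8 end in the letter and digit used to mark pseudogenes, but they are protein-coding and named by the pattern, so they were kept. The nuclear genes comprise 36 of complex I, 4 of complex II, 10 of complex III, 18 of complex IV and 19 of complex V.

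U937 is an established human myeloid line derived from a histiocytic lymphoma. One group was given 10 nM phorbol 12-myristate 13-acetate (PMA), which activates protein kinase C, for 72 h, a treatment that the labels describe as differentiation to macrophage-like cells. The other group was kept for 72 h without PMA, and the labels name no vehicle. Each group has 2 libraries of poly(A)-enriched RNA read on an Ion Proton instrument, 1 from lot 1 and 1 from lot 2, and the labels do not say what a lot is or whether lots were cultured apart. Each p-value below thus reflects no more than how these 4 libraries scatter, and part of that scatter may be technical.

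The electron transport chain passes electrons from NADH through complex I, or from succinate through complex II, to coenzyme Q, then through complex III and cytochrome c to complex IV, which reduces oxygen. Complexes I, III and IV pump protons across the inner mitochondrial membrane, and complex V, the ATP synthase, uses the gradient. Complex II is built from nuclear genes alone, whereas the other complexes combine nuclear subunits with subunits translated inside the mitochondrion from long transcripts of mitochondrial DNA. In macrophages, oxidative phosphorylation and glycolysis are known to be used to different degrees in different activation states.

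Library depth was 35739833 and 50822971 counts with PMA in lots 1 and 2, and 54915928 and 41308603 counts without PMA. Gene levels are in CPM after TMM scaling of the library sizes, and within each group the value of lot 1 is given before that of lot 2. Of 7 monocyte and macrophage markers, 5 rose with PMA, against 4.29% of all genes tested, and of 6 immature myeloid markers, 4 fell, against 2.02% (edgeR's quasi-likelihood test, adjusted p under 0.05). The monocyte marker LYZ differed in direction between lots, with 211 and 126 CPM with PMA, against 136 and 905 CPM without. SPI1 of the immature myeloid list lay higher with PMA in each lot. It had 307 and 343 CPM with PMA, against 126 and 164 CPM without. LYZ and SPI1 did not pass that test. Of the 6 immature myeloid markers, 2 had a fitted log2 fold change above 0 and 1 differed in direction between lots. DESeq2 called 4 of the 6 lower, against 10.2% of all genes, and 1 higher, against 12.9%. The summed level of the monocyte and macrophage markers was 4158 and 4105 CPM with PMA, against 204 and 1018 CPM without. LYZ made up 136 and 905 CPM of the untreated sums. For the immature myeloid markers it was 404 and 424 CPM with PMA, against 1410 and 1729 CPM without. T cell, erythroid and fibroblast markers were at 0 in the 4 libraries, 2 B cell markers were at 7.63 CPM or less, and the epithelial marker EPCAM reached 0.0216 CPM in 1 library. The endothelial marker PECAM1, which monocytes also carry, was at 1462 and 1933 CPM with PMA, against 62.1 and 46.1 CPM without, while CDH5 and KDR were at 0. The muscle marker MB was at 9.60 and 53.0 CPM with PMA and at 0 without, with the other 3 muscle markers at 0.

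With PMA, nuclear subunit genes of complexes I, III, IV and V lay mostly below their untreated level, complex II did not, and no single gene passed the test. Of the 100 genes, 94 had enough counts to be tested. In the quasi-likelihood test of edgeR, adjusted by Benjamini-Hochberg over 16451 genes, 0 of the 94 were called lower, against 2.02% of all genes tested, and 0 were called higher, against 4.29%. At an unadjusted p under 0.05, 11 of the 94 were lower, which is 11.7%, against 12.5% of all genes, and 0 were higher, against 14.6%. DESeq2 called 7 lower, which is 7.45%, against 10.2% of all genes, and 0 higher, against 12.9%. limma-voom called 1 lower, against 3.87% of all genes, a filter of 5 CPM in 2 libraries left 1 called lower by edgeR, against 6.65%, and without the untreated library of lot 1 edgeR called 8 lower, against 6.21%. The share of these genes called lower was thus below that of all genes by edgeR, DESeq2, limma-voom and the stricter filter, and above it without the untreated library of lot 1. None of the 100 genes was called in the authors' deposited table, where 0.742% of its entries were called lower and 1.48% higher, and the smallest q-value of the 100 was 0.139. Bulk RNA cannot tell fewer cells of a type from less RNA per cell.

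More of these genes than of all genes tested lay below their untreated level in both lots. In 51 of the 94 genes, or 54.3%, PMA was below untreated in both lots, against 35.9% of all genes tested, and in 11 genes, or 11.7%, it was above in both lots, against 37.8%. Both PMA libraries lay below both untreated libraries in 41 of the 94, or 43.6%, against 29.4% of all genes, and these 41 were nuclear. Both PMA libraries lay above both untreated libraries in 5 of the 94, or 5.32%, against 31.0%. The median fitted log2 fold change, PMA over untreated, was −0.54 for nuclear complex I, 0.07 for complex II, −0.47 for complex III, −0.53 for complex IV and −0.67 for complex V. It was −0.40 for the mitochondrial mRNAs and 0.00 for all genes tested. Upper-quartile scaling moved the median of all genes to −0.17 and that of the 94 genes to −0.68, against −0.51 with TMM.

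The lower values were more pronounced in lot 2. In lot 1 the median log2 ratio of PMA to untreated over the nuclear genes was −0.13, and in lot 2 it was −0.79. Over all genes tested these medians were −0.04 and 0.06, so in lot 1 the nuclear genes lay little below all genes. Without the untreated library of lot 2, 49 of the 94 fitted fold changes were below 0, with a median of −0.04, against 77 of 94 with every library, and without the untreated library of lot 1, 85 of 94 were below 0, with a median of −0.86. Both of these fits set a lone untreated library of a single lot against PMA libraries of both lots. They thus mix lot with treatment and do not measure the effect within a lot. The 94 also include the 13 mitochondrial mRNAs, which lay higher in lot 2. Whether the PMA effect differs between lots could not be tested, since a fit with that interaction leaves no residual degrees of freedom.

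**Figure D1:**
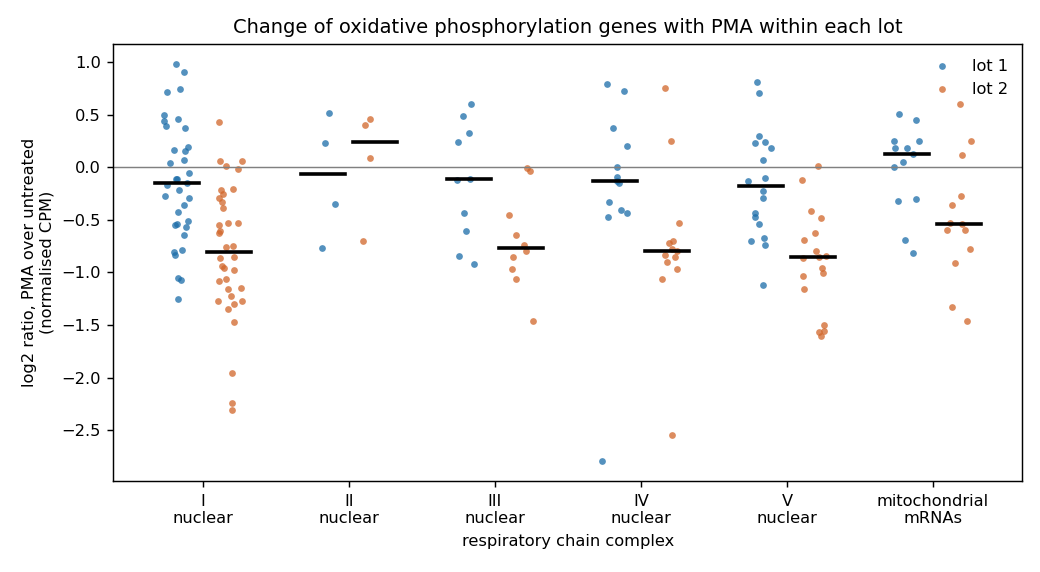
Log2 ratio of PMA to untreated (vertical axis, normalised CPM) within lot 1 and lot 2 for each tested gene, by complex; each point is a gene and each black line a median. In lot 2 the medians of complexes I, III, IV and V lie between −0.76 and −0.86, in lot 1 between −0.11 and −0.17, and complex II has medians of −0.06 in lot 1 and 0.24 in lot 2. NDUFA3, at 0 in 1 library, has no ratio for lot 1.

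**Figure D2:**
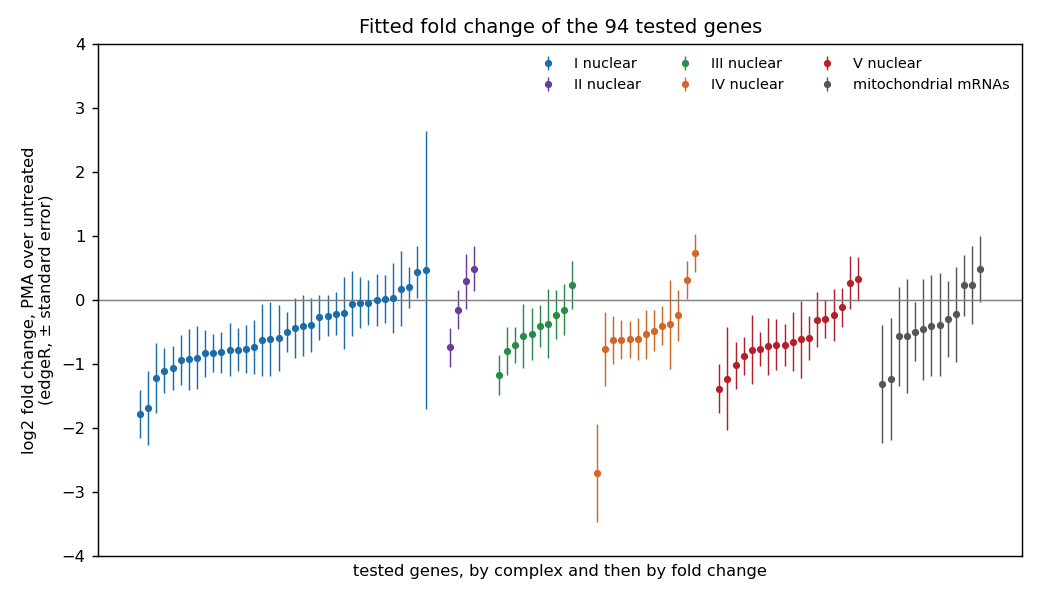
Fitted log2 fold change, PMA over untreated, with its standard error (edgeR) for the 94 tested genes, ordered within each complex. Values run from −2.70 for COX8C to 0.74 for NDUFA4, and the mitochondrial mRNAs have wide errors. The fit holds no term for the lot, so differences between lots enter the errors.

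Complex I, NADH dehydrogenase, takes electrons from NADH at the tip of its matrix arm, where NDUFV1 carries the flavin. NDUFV1 had 68.2 and 47.4 CPM in the PMA libraries, against 162 and 234 CPM in the untreated libraries. Both PMA libraries were low in each lot, and the groups did not overlap. Its log2 fold change of −1.78 ± 0.38 (SE) had the smallest p of the 100 genes, with an edgeR adjusted p of 0.061, and over the alternatives its adjusted p ran from 0.000733 with DESeq2 to 0.406. The 250 bases before its annotated start in RefSeq (GRCh38.p14, chr11:67606686-67606935, plus strand) are shown because it is the gene with the smallest p, and they hold none of the 3 motifs searched below.
NDUFV1 upstream: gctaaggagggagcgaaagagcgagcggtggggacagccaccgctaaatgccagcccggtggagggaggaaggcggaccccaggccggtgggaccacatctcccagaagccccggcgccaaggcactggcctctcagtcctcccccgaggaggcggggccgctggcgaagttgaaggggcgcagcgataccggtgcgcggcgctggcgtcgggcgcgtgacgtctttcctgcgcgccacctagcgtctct

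NDUFA9 and NDUFA10 are accessory subunits, of the matrix arm and of the membrane arm. NDUFA9 had 44.5 and 35.0 CPM with PMA, against 79.2 and 86.2 CPM without (log2 fold change −1.06 ± 0.34, edgeR adjusted p = 0.124). NDUFA10 had 19.2 and 19.7 CPM with PMA, against 39.8 and 43.6 CPM without (log2 fold change −1.10 ± 0.35, edgeR adjusted p = 0.125). In both genes the replicates of a group lay close together and the groups were apart. NDUFS6, a zinc-binding subunit, had 11.6 and 11.3 CPM with PMA, against 20.05 and 53.3 CPM without, so its untreated libraries differed from each other more than its lot 1 libraries did. DESeq2 called these 3 genes and NDUFV1 lower.

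NDUFB9, a membrane arm subunit, had the most counts of the nuclear complex I genes (counts also depend on transcript length), with 394 and 346 CPM with PMA, against 482 and 834 CPM without. Among the 36 genes, 20 were lower with PMA in both lots, 3 were higher in both and 13 differed in direction between lots. These are 55.6%, 8.33% and 36.1%, against 35.9%, 37.8% and 26.4% of all genes tested. The 7 core subunits had a median log2 fold change of −0.49, and the 29 accessory subunits −0.59. NDUFB6, a membrane arm subunit, was above the untreated level in each lot, with 22.3 and 18.5 CPM with PMA, against 16.4 and 13.7 CPM without. NDUFA3 had 42 and 182 counts with PMA, against 0 and 163 counts without, and a listed 0 can be a failed estimate. The flavoprotein partner NDUFV2 had 180 and 180 CPM with PMA, against 131 and 183 CPM without, and the largest core subunit, NDUFS1, had 50.3 and 43.3 CPM with PMA, against 54.4 and 41.7 CPM without.

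Complex II, succinate dehydrogenase, is also an enzyme of the citric acid cycle, and its 4 genes did not move one way. SDHA, the flavoprotein that oxidises succinate, had 131 and 134 CPM with PMA, against 167 and 126 CPM without, and the groups overlapped. SDHB, the iron-sulfur subunit that relays the electrons, had 114 and 100 CPM with PMA, against 193 and 162 CPM without. Its log2 ratios were −0.77 in lot 1 and −0.70 in lot 2, so that the lots were alike, and the fitted log2 fold change was −0.73 ± 0.30 (edgeR adjusted p = 0.204).

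The membrane anchors of complex II, which bind coenzyme Q, lay on the other side. SDHC had 109 and 81.7 CPM with PMA, against 76.4 and 59.3 CPM without, with the groups apart (log2 fold change 0.49 ± 0.35, edgeR adjusted p = 0.441). SDHD had 106 and 69.9 CPM with PMA, against 90.3 and 52.9 CPM without; each lot had the PMA value above the untreated one, and the lots differed more than the groups. Summed over the 4 genes, the level was 460 and 385 CPM with PMA, against 526 and 401 CPM without.

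Complex III, the cytochrome bc1 complex, hands electrons from coenzyme Q to cytochrome c. CYC1, which holds the haem that reduces cytochrome c, had 226 and 201 CPM with PMA, against 406 and 554 CPM without. The groups were apart and the log2 fold change was −1.17 ± 0.32 (edgeR adjusted p = 0.090), a gene that DESeq2 called lower. The Rieske iron-sulfur protein UQCRFS1 had 166 and 154 CPM with PMA, against 253 and 266 CPM without (log2 fold change −0.70 ± 0.28, edgeR adjusted p = 0.200). The core protein UQCRC1, the one of the 10 with the most counts, had 386 and 404 CPM with PMA, against 418 and 631 CPM without.

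Small subunits of complex III were less uniform. UQCRH, the hinge protein, had 121 and 131 CPM with PMA, against 164 and 275 CPM without. Its intronless copy UQCRHL had 8.10 and 6.71 CPM with PMA, against 8.78 and 13.1 CPM without, and since the copies are near-identical the split of reads between them is uncertain. UQCRB had 110 and 118 CPM with PMA, against 72.4 and 121 CPM without, above the untreated level in lot 1 only. Of the 10 genes, 6 were lower in both lots and 0 were higher in both, against 35.9% and 37.8% of all genes tested.

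Complex IV, cytochrome c oxidase, has tissue isoforms of several nuclear subunits. The isoforms COX4I2, COX6A2, COX6B2, COX7A1 and COX7B2 had 0 counts in each of the 4 libraries, which allows a level of up to 3 counts per library, or 0.0921 and 0.0649 CPM with PMA and 0.0475 and 0.0695 CPM without; this limit covers counting error only. Their widespread partners were all measured. COX4I1 had 281 and 232 CPM with PMA, against 300 and 378 CPM without. COX7A2 had 113 and 111 CPM with PMA, against 87.2 and 93.5 CPM without, above the untreated level in each lot (log2 fold change 0.31 ± 0.29, edgeR adjusted p = 0.567).

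For 2 further isoform pairs the untreated library of lot 2 stood apart. COX6B1 had 288 and 370 CPM with PMA, against 166 and 690 CPM without, so the PMA value was above untreated in lot 1 and below it in lot 2. COX8A had 192 and 289 CPM with PMA, against 213 and 606 CPM without. COX6A1, at 168 and 197 CPM with PMA, against 233 and 325 CPM without, and COX7B, at 180 and 162 CPM with PMA, against 197 and 279 CPM without, were lower in each lot. COX5B, the nuclear subunit of complex IV with the highest counts, had 413 and 471 CPM with PMA, against 360 and 681 CPM without, so that the groups overlapped.

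COX8C, an isoform described in testis, was the 1 tested gene among the tissue isoforms. It had 31 and 29 counts with PMA, against 418 and 158 counts without, or 0.951 and 0.627 CPM, against 6.61 and 3.66 CPM. The log2 ratios were −2.80 in lot 1 and −2.55 in lot 2, and the fitted log2 fold change of −2.70 ± 0.76 was the lowest of the 94 (edgeR adjusted p = 0.097). DESeq2 called it lower.

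NDUFA4, once assigned to complex I and now counted as a complex IV subunit, had the highest fold change of the 94 genes. It had 255 and 218 CPM with PMA, against 155 and 130 CPM without, with log2 ratios of 0.72 in lot 1 and 0.75 in lot 2. The groups were apart and the lots alike, but the log2 fold change of 0.74 ± 0.30 missed the threshold (edgeR adjusted p = 0.203). COX7A2L, a factor of respiratory supercomplexes, had 115 and 96.6 CPM with PMA, against 153 and 172 CPM without. COX5A, a matrix-side subunit, had 153 and 130 CPM with PMA, against 206 and 227 CPM without. Of the 13 tested complex IV genes, 9 were lower in both lots and 2 were higher in both, against 35.9% and 37.8% of all genes.

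Complex V, the ATP synthase, turns a ring of c subunits against a catalytic head held by a peripheral stalk. The 3 c-ring genes, which encode the same mature protein, were unlike each other. ATP5MC2 had 111 and 138 CPM with PMA, against 242 and 407 CPM without (log2 fold change −1.38 ± 0.38, edgeR adjusted p = 0.094), and DESeq2 called it lower. ATP5MC1 had 34.2 and 59.9 CPM with PMA, against 37.4 and 183 CPM without, a difference that rests on the untreated library of lot 2. ATP5MC3 had 343 and 267 CPM with PMA, against 303 and 356 CPM without, and the groups overlapped.

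Of the 5 genes of the catalytic head and its central stalk, 4 were lower with PMA in each lot, against 35.9% of all genes tested. ATP5F1B, the catalytic beta subunit and the gene with the most counts of the 87, had 711 and 645 CPM with PMA, against 1133 and 1163 CPM without (log2 fold change −0.76 ± 0.27, edgeR adjusted p = 0.155). ATP5F1A, the alpha subunit, had 450 and 353 CPM with PMA, against 751 and 722 CPM without (log2 fold change −0.88 ± 0.29, edgeR adjusted p = 0.138). The untreated libraries of both genes lay close together, so these differences do not rest on 1 lot. ATP5PB of the peripheral stalk had 170 and 117 CPM with PMA, against 237 and 344 CPM without.

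Among the remaining complex V genes, ATP5IF1, the inhibitor that blocks ATP hydrolysis, had 19.9 and 27.1 CPM with PMA, against 28.8 and 48.7 CPM without. ATP5F1E, the epsilon subunit of the central stalk, had 167 and 160 CPM with PMA, against 102 and 158 CPM without, which puts it narrowly above in lot 2. ATP5MGL, with 3 to 8 counts per library, was not tested. Of the 18 tested complex V genes, 11 were lower in both lots and 1 was higher in both, against 35.9% and 37.8% of all genes.

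**Figure D3:**
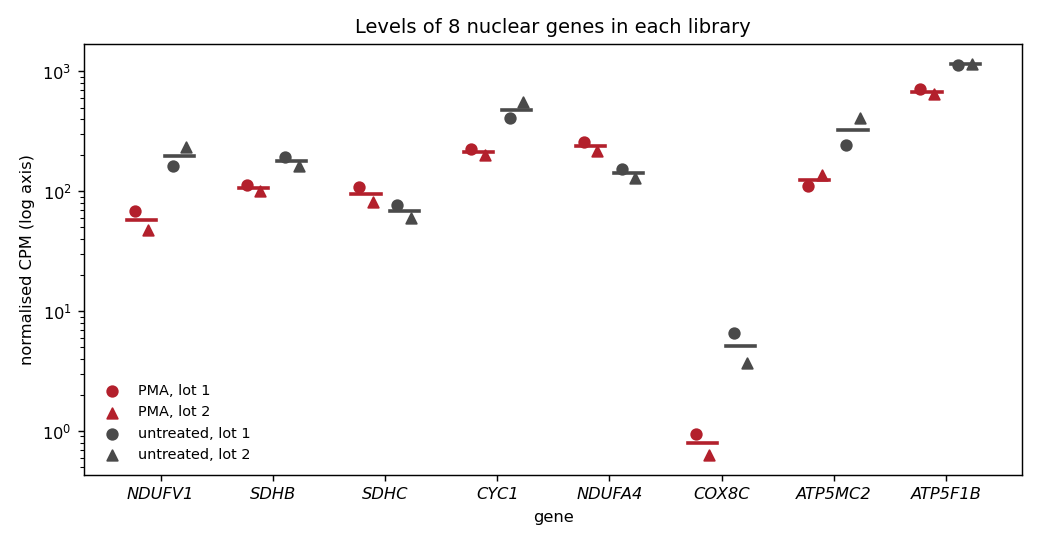
Normalised CPM (log axis) of 8 nuclear genes in each library; circles are lot 1, triangles lot 2, and lines are group means of 2 libraries. PMA points lie below untreated points for NDUFV1, SDHB, CYC1, COX8C, ATP5MC2 and ATP5F1B, and above them for SDHC and NDUFA4.

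Summed over a complex, the nuclear genes gave levels of 2446 and 2296 CPM with PMA, against 2748 and 4304 CPM without, for complex I. For complex III the sums were 1357 and 1343 CPM with PMA, against 1697 and 2347 CPM without, and for complex IV 2317 and 2430 CPM with PMA, against 2248 and 3870 CPM without. Complex V summed to 2782 and 2458 CPM with PMA, against 3649 and 4592 CPM without. The PMA libraries lay below both untreated libraries for complexes I, III and V, and between them for complex IV. The placing of complex IV depends on the scaling. Its unscaled share of counts was 0.211% and 0.221% with PMA, against 0.259% and 0.404% without, so both PMA shares lay below both untreated ones. As a share of a library, the 87 nuclear genes took 0.854% and 0.811% of counts with PMA, against 1.25% and 1.62% without. Their scaled sums were 9362 and 8912 CPM with PMA, against 10869 and 15513 CPM without. Shares are not TMM-scaled, and the gap in lot 1 was narrower in scaled CPM. With 2 libraries a group, a two-sided exact permutation test cannot go below p = 0.333.

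The mitochondrial mRNAs lay higher in lot 2 than in lot 1 in both groups, and edgeR called none of them for lot or treatment. The 13 mRNAs took 5.09% and 2.097% of counts with PMA in lots 2 and 1, against 7.20% and 2.48% without PMA. After TMM scaling their sums were 55975 and 23003 CPM with PMA in lots 2 and 1, against 68898 and 21552 CPM without. In lot 1 the PMA library was thus below untreated by unscaled share and above it by scaled CPM. Each of the 13 was higher in both lot 2 libraries than in both lot 1 libraries, which held for 11.3% of all genes tested. In a fit with treatment and lot, the median log2 fold change of lot 2 over lot 1 was 1.60, from 0.85 for MT-ND3 to 2.11 for MT-ND2. edgeR called 0 of the 13 and 0.0% of all 16451 genes higher in lot 2 (smallest adjusted p of the 13, 0.753). At an unadjusted p under 0.05 the 13 were higher in lot 2, as were 1.79% of all genes, and DESeq2 called 11 of the 13 higher, against 0.346% of all genes. The treatment groups overlapped in all 13, which the order of the lots fixes in advance, so the overlap says nothing about treatment. Within lots, 4 of the 13 were lower with PMA in both, against 35.9% of all genes tested. Another 3 were higher in both, against 37.8%, and 6 differed in direction between lots, against 26.4%.

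The lot difference was not shared by the rest of the mitochondrial readout to the same extent. The nuclear genes had a median log2 ratio of lot 2 to lot 1 of −0.11 with PMA and 0.54 without, against 1.33 with PMA and 2.01 without for the mitochondrial mRNAs. Mitochondrial rRNAs, the RNA of the mitochondrial ribosome, took 0.833% and 0.682% of counts with PMA in lots 2 and 1, against 1.21% and 1.11% without PMA. The ratio of mitochondrial mRNA to mitochondrial rRNA counts was accordingly 6.11 and 3.07 with PMA in lots 2 and 1, and 5.92 and 2.23 without. Ratios of mitochondrial mRNA to nuclear subunit counts were 2.46 and 6.28 with PMA in lots 1 and 2, against 1.98 and 4.44 without, higher with PMA in each lot. The labels do not say how the lots were handled.

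Within the mitochondrial genome, MT-ND1 and MT-ND2 lay on one side of the untreated level and their downstream neighbour MT-CO1 on the other, though none passed the test. MT-ND1, a membrane subunit of complex I, had 604 and 1853 CPM with PMA, against 976 and 5121 CPM without, lower in each lot. Also of complex I, MT-ND2 had 378 and 1363 CPM with PMA, against 668 and 3433 CPM without, also lower in each lot. MT-CO1, the catalytic core of complex IV, had 8175 and 18770 CPM with PMA, against 6855 and 12400 CPM without, higher in each lot. Fitted log2 fold changes were −1.31 ± 0.92 for MT-ND1, −1.24 ± 0.95 for MT-ND2 and 0.48 ± 0.51 for MT-CO1, with edgeR adjusted p of 0.440, 0.480 and 0.612. These fits hold no term for the lot, so the lot difference of these mRNAs enters their errors. With the lot as a block, the edgeR adjusted p was 0.132, 0.115 and 0.361.

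Set against each other within a library, which removes the lot's common level, the ratio of MT-CO1 to MT-ND1 counts was 13.5 and 10.1 with PMA, against 7.02 and 2.42 without. For MT-CO1 over MT-ND2 it was 21.6 and 13.8 with PMA, against 10.3 and 3.61 without. Both ratios had the groups apart, and the exact permutation test cannot go below 0.333 here; the pairs were chosen after their values were seen. MT-CO1 made up 35.5% and 33.5% of mitochondrial mRNA counts with PMA, against 31.8% and 18.0% without, and MT-ND1 2.63% and 3.31% with PMA, against 4.53% and 7.43% without. Nuclear entries that resemble mitochondrial genes held counts equal to 7.48% to 10.4% of those of MT-CO1 to 6.99% to 9.14% of those of MT-ND1 and to 16.96% to 21.5% of those of MT-ND2, lowest for MT-ND2 in the untreated library of lot 2, and their part in the ratios was not tested.

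MT-CO2 and MT-CO3, the other mitochondrial subunits of complex IV, showed no such pattern. MT-CO2 had 3296 and 8297 CPM with PMA, against 2900 and 10628 CPM without. MT-CO3 had 3077 and 8235 CPM with PMA, against 2968 and 11923 CPM without. Each was above untreated in lot 1 and below it in lot 2, and so were MT-ATP6, MT-CYB, MT-ND4 and MT-ND6. MT-ATP6, the proton channel subunit of complex V, had 1153 and 2145 CPM with PMA, against 846 and 4032 CPM without, and MT-CYB, the mitochondrial subunit of complex III, had 593 and 1597 CPM with PMA, against 498 and 2730 CPM without.

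For complex I, MT-ND4 had 3106 and 8227 CPM with PMA, against 3093 and 12467 CPM without, which was level in lot 1. MT-ND5, at the far end of the proton-pumping arm, had 894 and 1692 CPM with PMA, against 786 and 1420 CPM without, and was above untreated in each lot, as was MT-ATP8 of complex V, with 233 and 475 CPM with PMA, against 163 and 437 CPM without. MT-ND3 had 337 and 545 CPM with PMA, against 414 and 825 CPM without, and MT-ND4L had 969 and 2287 CPM with PMA, against 1213 and 2767 CPM without; both were below untreated in each lot. MT-ND6, the one subunit read from the other strand, had 188 and 492 CPM with PMA, against 172 and 714 CPM without. MT-ATP8 overlaps MT-ATP6 and MT-ND4L overlaps MT-ND4 on shared mRNAs, and without known strand use the reads of overlapping or antisense genes cannot be told apart.

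Per kilobase of transcript the order of levels also differed between libraries. MT-CO1 stood at 5302 and 12172 CPM per kilobase with PMA, against 4446 and 8042 without, and MT-CO2 at 4819 and 12130 CPM per kilobase with PMA, against 4240 and 15539 without. MT-CO1 was thus the highest of the 13 in both PMA libraries, narrowly so in lot 2, and in the untreated library of lot 1, and in the untreated library of lot 2 it came after MT-CO2, MT-CO3, MT-ND4L and MT-ND4. MT-CO3 stood at 3924 and 10504 CPM per kilobase with PMA, against 3786 and 15208 without.

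**Figure D4:**
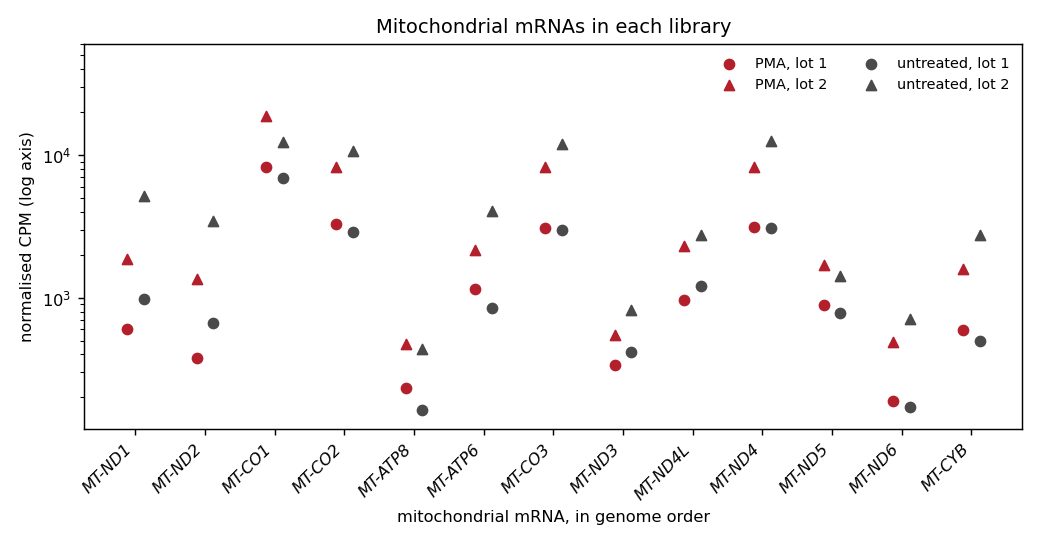
Normalised CPM (log axis) of the 13 mitochondrial mRNAs in each library, in genome order; circles are lot 1 and triangles lot 2. Each lot 2 point lies above both lot 1 points of its gene, and PMA lies below untreated within each lot for MT-ND1 and MT-ND2 and above it for MT-CO1.

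Nuclear subunits are mostly small proteins, and the difference between lots in the untreated libraries varied with coding length. The 41 tested nuclear genes up to the median coding length had a median log2 ratio of lot 2 to lot 1 of −0.03 with PMA and 0.75 without. The 40 longer ones had −0.15 with PMA and 0.25 without. Across 80 genes, Spearman's rho of the untreated lot ratio with coding length was −0.56, and across 81 genes rho of the PMA lot ratio was −0.18; genes of 1 library share its preparation and are not independent. The log2 ratio of PMA to untreated in lot 1 had a median of 0.13 for the short genes and −0.39 for the long ones, and in lot 2 of −0.79 and −0.80. Of all genes at 10 CPM or more, 445 no longer than that length had a median untreated log2 ratio of lot 2 to lot 1 of 0.62, and 8315 longer ones −0.16. Among those genes at large, the median log2 ratio of PMA to untreated in lot 2 was −0.53 for the short and 0.23 for the long ones, and in lot 1 it was 0.06 and 0.07. Their median fitted log2 fold change was −0.25 for the short and 0.10 for the long ones, beside −0.40 for the short and −0.70 for the long nuclear subunit genes. For short subunits the median of 0.00 over all genes tested is therefore not a baseline of matched length. Nor is 0.10 one for the long subunits, whose median coding length was 598.5 nucleotides, against 1437 for the 8315 longer genes. The part of length in the fold changes of short and long subunits was not tested.

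**Figure D5:**
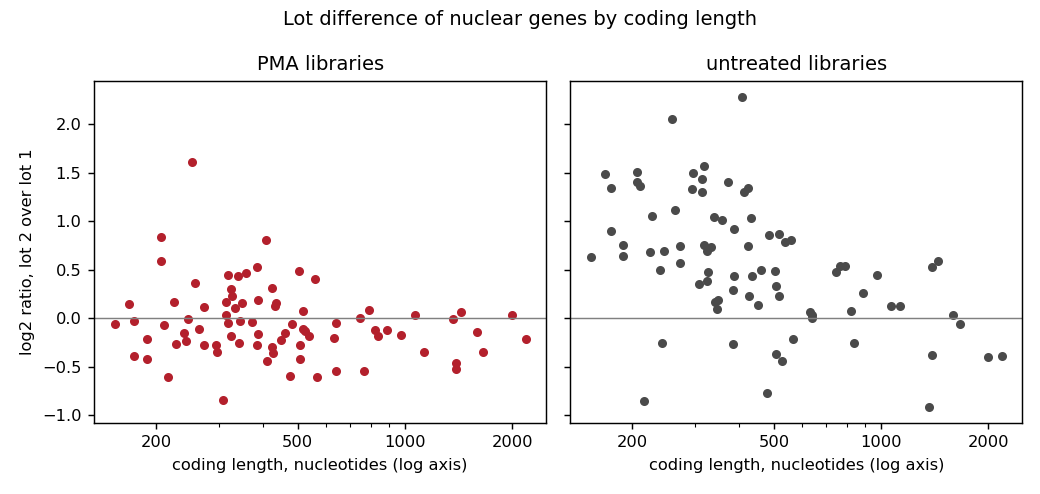
Log2 ratio of lot 2 to lot 1 in the PMA libraries (left) and the untreated libraries (right) against coding length (log axis) for the tested nuclear genes. In the untreated libraries the short genes lie higher (median 0.75 for the short and 0.25 for the long ones), and in the PMA libraries both lie near 0 (−0.03 and −0.15).

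Promoters of respiratory genes are known to hold sites of nuclear respiratory factor 1 (NRF1) and of the ETS factor GABP. The 250 bases before the annotated start were found in RefSeq (GRCh38.p14) for 70 of the 87 nuclear genes and searched on both strands for the NRF1 motif (GCGC, 1 base of any kind, then TGCGC), for ACTTCCGG as the ETS motif and for AAGATGGC as the YY1 motif. The NRF1 letters occurred in 15 of the 70, or 21.4%, against 6.20% of all 27305 genes with a window and 8.72% of the 15842 protein-coding ones. The ETS letters occurred in 12, or 17.1%, against 4.13% of all and 5.81% of protein-coding genes, and the YY1 letters in 1, or 1.43%, against 1.64% and 1.77%. Tested genes with the NRF1 letters had a median log2 fold change of −0.41 (15 genes) and those without −0.56 (52 genes); with the ETS letters it was −0.30 (12 genes) and without −0.60 (55 genes). No motif of the 3 contains another. A match describes the letters in the window and not a bound site.

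SDHA is shown whole since its window holds the NRF1 letters 4 times, and its fitted log2 fold change was −0.15. The window lies at chr5:218070-218319 on the plus strand, and capitals mark the matches, which start 166, 117, 68 and 19 bases before the annotated start.
SDHA upstream: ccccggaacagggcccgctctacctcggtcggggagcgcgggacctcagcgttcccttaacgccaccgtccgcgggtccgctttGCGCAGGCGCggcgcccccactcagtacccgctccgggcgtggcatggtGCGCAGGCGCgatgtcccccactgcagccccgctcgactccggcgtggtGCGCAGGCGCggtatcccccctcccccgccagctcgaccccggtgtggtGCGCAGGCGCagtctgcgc

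Single matches are shown, with flanks, for genes on either side of 0, since the same letters stand before SDHD, whose fitted fold change was above 0, and before NDUFA9, UQCRFS1, ATP5PO and COX8C, whose fitted fold changes were below 0. Capitals mark the NRF1 letters, on the strand of the gene: SDHD at chr11:112086743-112086792 (plus), NDUFA9 at chr12:4649014-4649063 (plus), UQCRFS1 at chr19:29213153-29213202 (minus), ATP5PO at chr21:33915805-33915848 (minus) and COX8C at chr14:93347147-93347181 (plus).
SDHD site: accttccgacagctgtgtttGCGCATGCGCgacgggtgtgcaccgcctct
NDUFA9 site: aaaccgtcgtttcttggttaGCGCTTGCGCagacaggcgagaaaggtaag
UQCRFS1 site: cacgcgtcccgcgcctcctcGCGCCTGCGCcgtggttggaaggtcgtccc
ATP5PO site: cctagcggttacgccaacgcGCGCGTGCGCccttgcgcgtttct
COX8C site: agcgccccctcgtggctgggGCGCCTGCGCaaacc

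Genes that build and supply the complexes were measured from lists chosen by name. Over all genes tested, 2.02% were lower and 4.29% higher by edgeR, 12.5% lower and 14.6% higher at an unadjusted p under 0.05, and 10.2% lower and 12.9% higher by DESeq2, and the counts below stand against these shares. Of 18 complex I assembly factors 0 passed the edgeR test in either direction, with a median log2 fold change of −0.95; 4 were lower at an unadjusted p under 0.05, and DESeq2 called 2 lower. NDUFAF2, which helps join the arms of complex I, had 4.54 and 6.58 CPM with PMA, against 24.8 and 26.4 CPM without (log2 fold change −2.20 ± 0.45, edgeR adjusted p = 0.057). ECSIT had 12.0 and 21.2 CPM with PMA, against 48.8 and 52.5 CPM without. The groups were apart in both genes, and 14 of the 18 factors were lower in both lots, against 35.9% of all genes.

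Of 14 assembly factors of complexes II, III and V, 0 passed in either direction by edgeR (6 lower at an unadjusted p under 0.05 and 6 by DESeq2; median −0.79). SDHAF3, needed for the iron-sulfur subunit of complex II, had 4.94 and 2.68 CPM with PMA, against 36.7 and 18.5 CPM without. Its edgeR adjusted p was 0.062 and, with the lot as a block, 0.049, in a range over the alternatives from 0.000104 to 0.272. FMC1, an assembly factor of complex V, had 17.03 and 19.4 CPM with PMA, against 50.5 and 57.9 CPM without (edgeR adjusted p = 0.066). Of 24 complex IV assembly factors, 0 passed in either direction by edgeR (4 lower at an unadjusted p under 0.05 and 3 by DESeq2; median −0.59). COX11, a copper chaperone, had 18.4 and 15.4 CPM with PMA, against 54.0 and 42.0 CPM without (edgeR adjusted p = 0.078), and CMC2 had 7.55 and 10.1 CPM with PMA, against 22.8 and 24.6 CPM without.

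Of 16 genes for cytochrome c, coenzyme Q synthesis and related subunits, 0 passed in either direction by edgeR. At an unadjusted p under 0.05, 4 were lower, and DESeq2 called 2 lower. Their median log2 fold change was −0.67, and 13 were lower in both lots, against 35.9% of all genes. COQ8A, an atypical kinase of coenzyme Q synthesis, had 38.8 and 26.4 CPM with PMA, against 143 and 103 CPM without (log2 fold change −1.92 ± 0.39, edgeR adjusted p = 0.057). COQ2, which attaches the tail of coenzyme Q, had 6.47 and 6.66 CPM with PMA, against 15.3 and 33.4 CPM without. Cytochrome c itself, CYCS, had 100 and 76.9 CPM with PMA, against 135 and 147 CPM without.

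Among 15 regulators of mitochondrial biogenesis, 1 fell and 0 rose by edgeR (2 lower and 0 higher at an unadjusted p under 0.05, 2 lower and 0 higher by DESeq2), with a median log2 fold change of −0.65. The one that fell was MYC, a transcription factor of growth genes, with 47.2 and 40.3 CPM with PMA, against 330 and 364 CPM without (log2 fold change −2.99 ± 0.32, edgeR adjusted p = 0.022). Leaving out the PMA library of lot 1 or of lot 2 ended that call, with edgeR adjusted p of 0.052 and 0.090 and log2 fold changes of −3.17 and −2.86. PPARGC1A, a coactivator of respiratory genes, had 2.15 and 0.346 CPM with PMA, against 47.5 and 7.02 CPM without. Its untreated libraries differed widely, and its edgeR adjusted p was 0.114 without a block and 0.035 with the lot as a block, in a range over the alternatives from 0.000682 to 0.235. NRF1 had 13.2 and 16.9 CPM with PMA, against 26.6 and 26.9 CPM without (edgeR adjusted p = 0.256), and TFAM, which packages mitochondrial DNA, had 24.0 and 12.7 CPM with PMA, against 43.5 and 24.2 CPM without (edgeR adjusted p = 0.363).

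Of 10 genes of mitochondrial DNA maintenance 1 fell and 0 rose by edgeR (3 lower and 1 higher at an unadjusted p under 0.05, 2 lower and 1 higher by DESeq2; median −0.40). It was TOP1MT, the mitochondrial topoisomerase, with 28.7 and 29.7 CPM with PMA, against 114 and 146 CPM without (log2 fold change −2.15 ± 0.34, edgeR adjusted p = 0.035). Without the PMA library of lot 1 or of lot 2 this call too was lost, with edgeR adjusted p of 0.204 and 0.238 and log2 fold changes of −2.19 and −2.16. TWNK, the mitochondrial DNA helicase, had 12.6 and 13.0 CPM with PMA, against 26.5 and 34.7 CPM without. The higher one was RRM2B, a ribonucleotide reductase subunit, which had 57.7 and 32.6 CPM with PMA, against 17.7 and 7.26 CPM without, and the groups were apart. Of 19 genes of mitochondrial RNA processing, 0 passed in either direction by edgeR (5 lower at an unadjusted p under 0.05 and 5 by DESeq2; median −0.44). LRPPRC, which stabilises mitochondrial mRNAs, had 127 and 94.7 CPM with PMA, against 389 and 270 CPM without (log2 fold change −1.57 ± 0.36, edgeR adjusted p = 0.067). TBRG4, a member of the FASTK family, had 80.4 and 71.7 CPM with PMA, against 151 and 183 CPM without. The 2 mitochondrial rRNAs had a median log2 fold change of −0.34.

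Of 24 tested genes of the citric acid cycle and pyruvate dehydrogenase, 0 passed in either direction by edgeR (6 lower and 1 higher at an unadjusted p under 0.05, 4 lower and 1 higher by DESeq2; median −0.23). OGDH, of the 2-oxoglutarate dehydrogenase complex, had 235 and 194 CPM with PMA, against 90.3 and 56.3 CPM without (log2 fold change 1.55 ± 0.37, edgeR adjusted p = 0.074). SUCLG1, of succinyl-CoA ligase, had 22.4 and 24.2 CPM with PMA, against 59.2 and 54.4 CPM without, on the other side. Of 19 tested genes that mark mitochondrial membrane and import, 0 passed in either direction by edgeR. At an unadjusted p under 0.05, 7 were lower, and DESeq2 called 7 lower. Their median log2 fold change was −0.83, and 16 were lower in both lots, against 35.9% of all genes. HSPD1, the matrix chaperonin, had 205 and 147 CPM with PMA, against 462 and 779 CPM without (log2 fold change −1.82 ± 0.40, edgeR adjusted p = 0.064), and TIMM44, of the import motor, had 41.5 and 42.0 CPM with PMA, against 112 and 93.5 CPM without. These lists are described by counts and medians, and nothing particular to any of them was tested.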

How the data were processed

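RNA was measured in 4 libraries. The authors deposited estimated counts per gene, not scaled between libraries. The other deposited table gives a signal for each gene (the count times 1 factor per library), a log2 ratio, a log2 mean level, a p-value and q-value, a score (the rank of the p-value) and the authors' call. HISAT2 2.1.0 and StringTie 2.1.1 are named per the submitters' processing notes. Genome build, annotation, counting program and strandedness were not given in the sources used here.

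Counts, already whole, were tested with edgeR 4.0.16 in R 4.3.3 (TMM, filterByExpr by group, quasi-likelihood test, Benjamini-Hochberg at 0.05 over 16451 genes, all 4 libraries, no block), and lots in a fit with treatment and lot. Standard errors are the log2 fold change over the root of F. The fits were tested on simulated data. The lot in the titles pairs the libraries, and deviations of libraries of 1 lot correlated at 0.154 across genes. Alternatives were RLE and upper-quartile factors, other filters, DESeq2 1.42.0, limma-voom 3.58.1, the lot as a block, other library sizes and leaving out each library. Coding lengths, transcript lengths and chromosomes came from GENCODE release 29. Genes printed are, per complex, the 3 with the smallest p, the most abundant, fixed isoform pairs and the 13 mitochondrial mRNAs, plus up to 2 genes with the smallest p of each list; NDUFB6, NDUFS6, NDUFV2, NDUFS1, NDUFA3, UQCRB, ATP5MC1, ATP5MC3, ATP5PB, ATP5F1E, ATP5MGL, CYCS, RRM2B, NRF1 and TFAM were added after their values were seen. The genes and lists were chosen with earlier results of these data known.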

Additional observations from a re-analysis of the deposited data

How the results depend on the processing

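Direction and side of the threshold were compared under 13 other settings, 1 of which, summing pseudogene entries into their parent genes, was chosen after seeing the data. Nuclear genes called lower with PMA numbered 0 in the report, 7 with DESeq2, 1 with limma-voom, 1 with a filter of 5 CPM in 2 libraries (NDUFV1 in each), and 0 to 8 when 1 library was left out. The 8 came without the untreated library of lot 1. Mitochondrial mRNAs called higher in lot 2 numbered 0 in the report and 11 with DESeq2. With 1 library left out, the median log2 fold change ran from −0.19 to 0.32 for complex II and from −1.14 to 0.93 for the mitochondrial mRNAs, and from −0.88 to −0.22 for complex I, −0.77 to −0.16 for III, −0.77 to −0.20 for IV and −0.87 to −0.14 for V; this leaves fewer libraries, with a lone one assumed to vary like the other group. With the lot as a replicate block, 0 of the 94 genes were called (smallest adjusted p 0.084), and the block changed no other call of a gene named in the report than those of SDHAF3 and PPARGC1A given there. COX6B1 turned to a log2 fold change of 0.0013 with limma-voom. When 1 library was left out, direction turned for 47 of the 94 tested genes; among the 46 genes that the naming rule picked these were COX5B (−0.69 to 0.30), COX6B1 (−1.13 to 0.99), COX8A (−1.39 to 0.18), MT-ATP6 (−1.35 to 0.96), MT-ATP8 (−0.37 to 1.11), MT-CO1 (−0.22 to 0.97), MT-CO2 (−1.02 to 1.00), MT-CO3 (−1.26 to 0.93), MT-CYB (−1.43 to 1.13), MT-ND1 (−2.32 to 0.33), MT-ND2 (−2.42 to 0.38), MT-ND3 (−0.97 to 0.0902), MT-ND4 (−1.31 to 0.87), MT-ND4L (−1.02 to 0.42), MT-ND5 (−0.29 to 0.72), MT-ND6 (−1.22 to 0.98), SDHA (−0.33 to 0.00693) and SDHD (−0.0968 to 0.67), and the other 29 were among the 53 tested genes outside it. Each such fit sets a lone library of a single lot against libraries of both lots, so lot and treatment are mixed in it. The cause of these turns was not tested. Of those 46 genes, 0 were called in the report, and the 5 isoforms at 0 in all 4 libraries have no fold change. Over every setting, the fold changes of the others kept direction and side of the threshold in 493 cases, turned in 27 and passed it newly in 12. Genes of the other lists are not in that tally, and MYC and TOP1MT lost their calls as the report states. Depth does not resolve levels under 3 counts, and 2 libraries a group limit each test.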
